A study of Mus musculus with 12 samples.

Results

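Chemokines are small secreted proteins that draw leukocytes along a gradient, and their receptors are G protein-coupled receptors on the cells that respond. CC, CXC and CX3C names mark how the first conserved cysteines of the ligand are spaced, and the receptors are named after the ligands they bind. Macrophages both secrete chemokines and carry the receptors for them, and in bone marrow these genes are known for guiding monocytes, neutrophils and the homing of plasma cells. All genes whose symbol starts with Ccl, Cxcl, Ccr or Cxcr and a digit, or with Cx3c, were taken, which gave 64 of the 55573 genes in the count table, 46 entries for ligands and 18 for receptors.

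RNA-seq was performed on 12 libraries, 3 in each of 4 groups. These were BMI1-KO MM-MΦs and BMI1-KO MΦs, and the wt MM-MΦs and wt MΦs they were set against. BMI1-KO cells came from C57BL/6 mice with floxed Bmi1 alleles and the Mx1-Cre transgene, whose promoter responds to interferon and is not limited to macrophages, and wt cells came from mice with the floxed alleles and no Cre. All mice, the wt ones included, had been given 5 doses of poly I:C at 15 mg/kg when 6 to 8 weeks old, and their marrow was taken 4 weeks after the last dose. Adherent marrow cells were grown for 7 days with 5 ng/mL M-CSF into MΦs (macrophages), and MM-MΦs (multiple myeloma-associated macrophages) then shared the culture with 5TGM1 cells, a mouse myeloma line, for 48 h. CD11b+ F4/80+ cells were sorted from both before RNA was made. Whether the 3 replicates of a group are separate mice is not stated, so a p-value here covers the spread among these libraries, which may be technical.

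Library totals were 9662279 to 11142768 counts, and the 8 macrophage marker genes summed to 12437 to 19078 CPM (counts scaled to a common library size by TMM) in every library, with none of the 8 without counts. The 6 BMI1-KO libraries listed Bmi1 at 0, although the floxed exons hold only a part of the gene, so it was not taken as a check of the labels. Igkc and Ighg2b, immunoglobulin chains made by plasma cells, had more counts in MM-MΦs. Igkc had 357 to 1218 counts in BMI1-KO MM-MΦs, against 8 to 25 in BMI1-KO MΦs, and 423 to 1327 counts in wt MM-MΦs, against 12, 157 and 31 in wt MΦs. The wt MΦ library numbered 2 thus also held immunoglobulin RNA. The 10 plasma cell markers summed to 399 to 513 CPM in BMI1-KO MM-MΦs, against 276 to 319 in BMI1-KO MΦs, and to 441 to 741 CPM in wt MM-MΦs, against 264 to 495 in wt MΦs. Most of the MΦ sums came from Xbp1, Prdm1 and Sdc1, with 104, 164 and 21.6 CPM in the BMI1-KO MΦ library numbered 1. For numbers 1, 2 and 3 Sdc1 had 20.0, 14.5 and 13.7 CPM in BMI1-KO MM-MΦs, against 21.6, 7.34 and 14.2 in BMI1-KO MΦs. In wt it had 60.6, 134 and 31.8 CPM in MM-MΦs, against 84.0, 119 and 24.2 in MΦs. Prdm1 was lower in MM-MΦs for BMI1-KO numbers 2 and 3 and for wt number 2. Irf4 and Pou2af1 were higher in MM-MΦs at every number. Jchain, Mzb1 and Tnfrsf17 had at most 9 counts in an MM-MΦ library. The part of myeloma cell RNA in the chemokine results was not tested. In such bulk samples fewer cells of a type and less RNA per cell cannot be told apart. The libraries of MM-MΦs and MΦs with 1 number deviated together within each genotype, so co-culture was also tested with the number as a block, called the paired test here. Libraries were not read as pairs across genotypes.

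Of the 64 genes, 26 passed edgeR's filter on low counts and were tested, 18 ligands and 8 receptors. A further 13 had between 1 and 70 counts over all 12 libraries, and 25 had no count. The 5 ligands counted but not tested were Ccl24, Ccl5, Ccl28, Cxcl9 and Ccl22, with at most 46 counts in all. The 8 such receptors were Cxcr2, Ccr10, Ccr9, Ccr6, Cxcr5, Cxcr1, Ccr8 and Ccr7. Ccl5, which draws T cells, had 9, 0 and 0 counts in BMI1-KO MM-MΦs, against 0, 4 and 0 in BMI1-KO MΦs, and 7, 4 and 0 counts in wt MM-MΦs, against 0 in all 3 wt MΦs. Ccr7, which takes dendritic cells to lymph nodes, had 1 count in 1 wt MΦ library. Among those without a count were the eosinophil-attracting Ccl11, the B cell-attracting Cxcl13, the CCR4 ligand Ccl17 and the receptors Ccr4 and Cxcr6. Of the 25 entries without a count, several are near-identical copies of Ccl19, Ccl21 and Ccl27 on chromosome 4 or on unplaced scaffolds, and how reads that fit more than 1 copy were treated is not stated.

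Promoter sequences are shown for 4 members that rose with co-culture in the paired test of at least 1 genotype, to set their promoters side by side. RefSeq (GRCm38.p6) gave a window of 300 bases, 250 before the gene start and 50 after it, for 21 of the 26 tested members, and Ccl2, Ccl4, Ccl7 and Cxcl16 were among those with none in the table. Capitals mark matches on either strand to a TATA box (TATAAA), an AP-1 motif (TGANTCA), an interferon-stimulated response element (2 copies of GAAA with any 2 bases between them) or the NF-kB consensus, and where matches overlap, the capitals run on. Cxcl2 lies at chr5:90903649-90903948 on the plus strand, Cxcl10 at chr5:92348840-92349139, Ccl9 at chr11:83578587-83578886 and Ccr1 at chr9:123968643-123968942, the last 3 on the minus strand.
Cxcl2: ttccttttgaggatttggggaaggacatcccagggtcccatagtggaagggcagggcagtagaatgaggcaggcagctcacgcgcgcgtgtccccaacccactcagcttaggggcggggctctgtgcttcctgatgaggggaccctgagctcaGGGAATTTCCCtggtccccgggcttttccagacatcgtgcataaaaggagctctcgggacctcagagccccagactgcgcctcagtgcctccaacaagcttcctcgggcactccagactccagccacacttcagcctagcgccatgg
Cxcl10: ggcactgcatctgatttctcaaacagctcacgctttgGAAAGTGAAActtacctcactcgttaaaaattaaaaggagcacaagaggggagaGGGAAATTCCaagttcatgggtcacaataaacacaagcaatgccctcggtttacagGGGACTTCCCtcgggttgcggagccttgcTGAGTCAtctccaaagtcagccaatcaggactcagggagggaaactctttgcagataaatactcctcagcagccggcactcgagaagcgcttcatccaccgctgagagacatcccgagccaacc
Ccl9: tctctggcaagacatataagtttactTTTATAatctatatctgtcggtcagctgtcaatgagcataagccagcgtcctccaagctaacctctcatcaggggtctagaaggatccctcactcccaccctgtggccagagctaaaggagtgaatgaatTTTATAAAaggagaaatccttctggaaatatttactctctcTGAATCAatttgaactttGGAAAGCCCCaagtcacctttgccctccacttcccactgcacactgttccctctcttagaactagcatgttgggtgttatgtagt
Ccr1: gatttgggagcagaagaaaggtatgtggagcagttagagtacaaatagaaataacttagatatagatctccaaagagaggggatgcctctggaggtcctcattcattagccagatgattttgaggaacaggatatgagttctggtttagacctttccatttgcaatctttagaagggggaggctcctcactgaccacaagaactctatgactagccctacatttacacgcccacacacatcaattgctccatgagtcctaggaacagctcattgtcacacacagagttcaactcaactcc

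The Cxcl2 window holds the NF-kB consensus on both strands, and Cxcl1 and Cxcl3, which neighbour Cxcl2 on chromosome 5, hold the same match. The Cxcl10 window holds an interferon-stimulated response element, 2 NF-kB matches and an AP-1 match, while the Ccr1 window holds none of the 4 motifs. The windows of Ccl3, Ccl6 and Ccr2, which rose in the paired test of 1 genotype each and are not shown, hold none either. In the Ccl9 window, matches to the TATA box on both strands overlap. RefSeq gives more than 1 window for Ccl25 and Ccl27a, so the 21 members have 24 windows. The NF-kB consensus was found in 7 of these 24 windows (29.2%), against 4.51% of all 32851 promoter windows of this length. Of the 7 members with it, Ccl27a, Ccr3, Cxcl1 and Cxcl3 did not pass in co-culture. The TATA box was found in 8 (33.3%) against 13.6% of all windows, the AP-1 motif in 5 (20.8%) against 7.81%, and the interferon-stimulated response element in 2 (8.33%), those of Cxcl10 and Cxcl14, against 3.44%. A match describes these letters and is not a binding site, and a window with none shows only that these letters are not in it.

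FPKM (fragments scaled by exon length and by library depth) allow genes to be compared with each other. Cxcl2, a ligand of the neutrophil receptor CXCR2, had the highest mean of all ligands at 331 FPKM over the 12 libraries, with a range of 185 to 580. Ccl3, a macrophage inflammatory protein that binds CCR1, came next at 252 FPKM (72.2 to 592), so the ranges of the first 2 overlapped. The following 6 were Ccl9 (129), Ccl4 (91.9), Cxcl16 (84.7), Ccl6 (60.9), Cxcl1 (54.3) and Cxcl14 (32.9), and each overlapped the next in range. Mouse Ccl6 and Ccl9 are ligands of CCR1, Ccl4 is a close relative of Ccl3, and Cxcl16 is a membrane-bound ligand of CXCR6. The CCR2 ligands Ccl2 (14.6), Ccl7 (10.8) and Ccl12 (2.51) were lower, and Cxcl10, an interferon-induced ligand of CXCR3, had 3.85 FPKM. The highest receptor was Cxcr4, the receptor of Cxcl12, at 148 FPKM (82.0 to 215), followed by Cx3cr1, the receptor of fractalkine, at 110 (32.8 to 266). Ccr1 had 17.4, Ccr2 4.12 and Ccr3, known as the eotaxin receptor, 3.99 FPKM. Several ligands were abundant where their receptor was not: Cxcl2 and Cxcl1 stood beside 0.188 FPKM of Cxcr2, and Cxcl16 beside no count of Cxcr6. The reverse held for Cxcr4, whose ligand Cxcl12 had 0.165 FPKM, and for Cx3cr1, whose ligand Cx3cl1 had 0.317 FPKM.

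**Figure D1:**
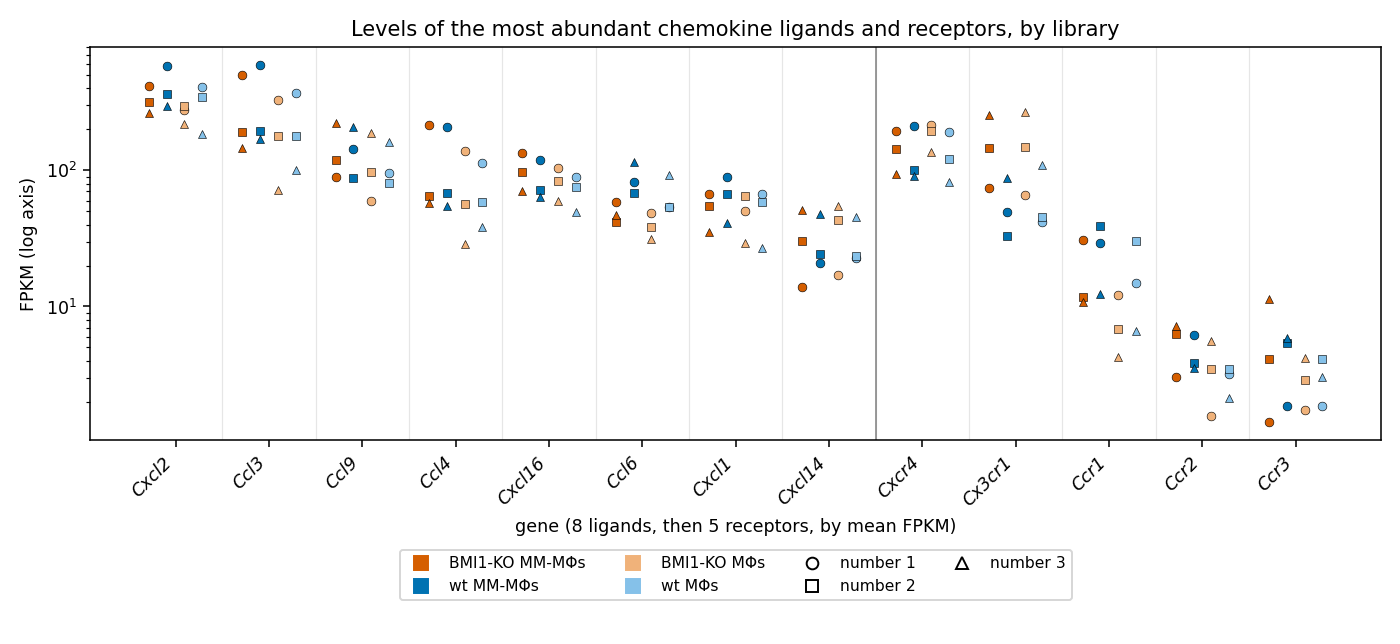
FPKM (y axis, log scale) of the 8 ligands with the highest mean and of 5 abundant receptors, 1 point for each of the 12 libraries, coloured by group and shaped by number. Cxcl2 lies between 185 and 580 FPKM, and Ccr3 between 1.41 and 11.4 FPKM.

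The level of many members went with the library number. In 11 of the 26 tested members (42.3%) the same number was highest in all 4 groups, against 23.9% of all genes tested. Number 1 was highest for Ccl3, Ccl4, Cxcl16, Ccl8 and Cxcr4, and number 3 for Ccl9, Cxcl14, Ccl2, Ccl7, Ccl12 and Cx3cr1. With values given in the order of numbers 1, 2 and 3, Ccl3 had 401, 145 and 111 CPM in BMI1-KO MM-MΦs, against 253, 139 and 53.4 CPM in BMI1-KO MΦs, and 489, 152 and 122 CPM in wt MM-MΦs, against 299, 137 and 71.0 CPM in wt MΦs. In each group the library numbered 1 thus stood apart from the others for Ccl3. Ccl8, a CCR8 ligand in the mouse, had no count in any library numbered 3, and 3 to 56 counts in the others.

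Co-culture with myeloma cells was compared within each genotype to ask how MΦs change beside the tumor cells. The inflammatory CC receptor Ccr1 and the ligands Ccl2 and Ccl4 were higher in MM-MΦs than in MΦs in both genotypes by the paired test. Ccr1 was 2.27-fold higher in BMI1-KO and 1.70-fold in wt cells, Ccl2, which draws monocytes through CCR2, 2.62-fold and 2.17-fold, and Ccl4 1.54-fold and 1.50-fold. In BMI1-KO cells Ccl7, Ccr2, Ccl3, Ccl9 and Cxcl10 also rose, and in wt cells Ccl6 and Cxcl2 did. None of Ccr1, Ccl2, Ccl4, Ccl6 and Cxcl2 passed in wt without both libraries numbered 1, or without both numbered 3. No member fell past the threshold in either genotype. In the test of the 4 group means, with no pairing, none of the 26 passed in either genotype.

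By the paired test 9 of 26 members (34.6%) rose in BMI1-KO MM-MΦs, where 2.17% of all genes were called, and 6 of 26 (23.1%) in wt MM-MΦs, where 1.10% of all genes were called (edgeR, adjusted p under 0.05). The 4 shared members are 44.4% of the BMI1-KO calls and 66.7% of the wt calls. With the 4 group means edgeR called 0.190% of all genes in BMI1-KO and 0.0916% in wt, and 0 members in both, with 3 members in BMI1-KO (2.94% of all genes) and 1 in wt (1.99% of all genes) at an unadjusted p under 0.05. DESeq2 and limma-voom on group means also called 0 members. The direction was alike in all 3 pairs for many members: 14 of 26 were higher in every BMI1-KO pair (53.8%, against 14.7% of all genes) and 4 lower in every pair (against 15.3%), and 15 of 26 were higher in every wt pair (57.7%, against 15.0% of all genes) and 1 lower (against 13.5%). Libraries did not overlap for 4 of 26 members in BMI1-KO (7.08% of all genes), among them Cxcl10 higher and Ccl25 and Ccl27a lower, and for 1 of 26 in wt (5.66% of all genes).

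Ccr1, a receptor of Ccl3, Ccl6 and Ccl9, was higher in each pair, while its libraries overlapped. BMI1-KO MM-MΦs had 90.7, 33.2 and 30.7 CPM, against 34.9, 19.6 and 11.7 CPM in BMI1-KO MΦs, and wt MM-MΦs had 89.4, 113 and 32.8 CPM, against 44.3, 86.0 and 17.2 CPM in wt MΦs. Both wt libraries numbered 2 were high, so the MΦ library of that number lay above the MM-MΦ library numbered 3. The log2 fold change was 1.18 in BMI1-KO (SE 0.14, edgeR paired adjusted p = 1.97e-05) and 0.76 in wt (SE 0.13, edgeR paired adjusted p = 0.00244). Ccr2, the receptor by which inflammatory monocytes leave the marrow, had 21.3, 42.1 and 48.4 CPM in BMI1-KO MM-MΦs, against 10.7, 23.5 and 36.4 CPM in BMI1-KO MΦs (log2 fold change 0.72, SE 0.16, edgeR paired adjusted p = 0.0128). In wt it had 45.2, 26.6 and 22.5 CPM in MM-MΦs, against 22.8, 23.6 and 13.2 CPM in MΦs (log2 fold change 0.65, SE 0.16, edgeR paired adjusted p = 0.0516). Ccr2 was thus higher in all 6 pairs and missed the threshold in wt. The 5 monocyte markers, 4 of them tested and none called, summed to 77.9 to 87.5 CPM in BMI1-KO MM-MΦs, against 61.9 to 72.5 in BMI1-KO MΦs, and to 74.7 to 241 CPM in wt MM-MΦs, against 58.1 to 220 in wt MΦs, and their part in the Ccr2 values was not tested.

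Ccr1, Ccr1l1, Ccr3 and Ccr2 lie in a cluster on chromosome 9 of GRCm38, between 123962124 and 124113557. Of these, Ccr3 and the Ccr1 relative Ccr1l1 did not pass: Ccr3 had 4.78, 13.2 and 37.2 CPM in BMI1-KO MM-MΦs, against 5.73, 9.44 and 13.2 CPM in BMI1-KO MΦs, and 6.59, 18.2 and 18.1 CPM in wt MM-MΦs, against 6.40, 13.6 and 9.13 CPM in wt MΦs. The largest Ccr3 difference stood in the BMI1-KO pair numbered 3. Ccr1l1 had at most 15 counts in a library. Ccr1 and Ccr1l1 are close paralogs, and how the authors treated reads with more than 1 place is not stated in the sources used.

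**Figure D2:**
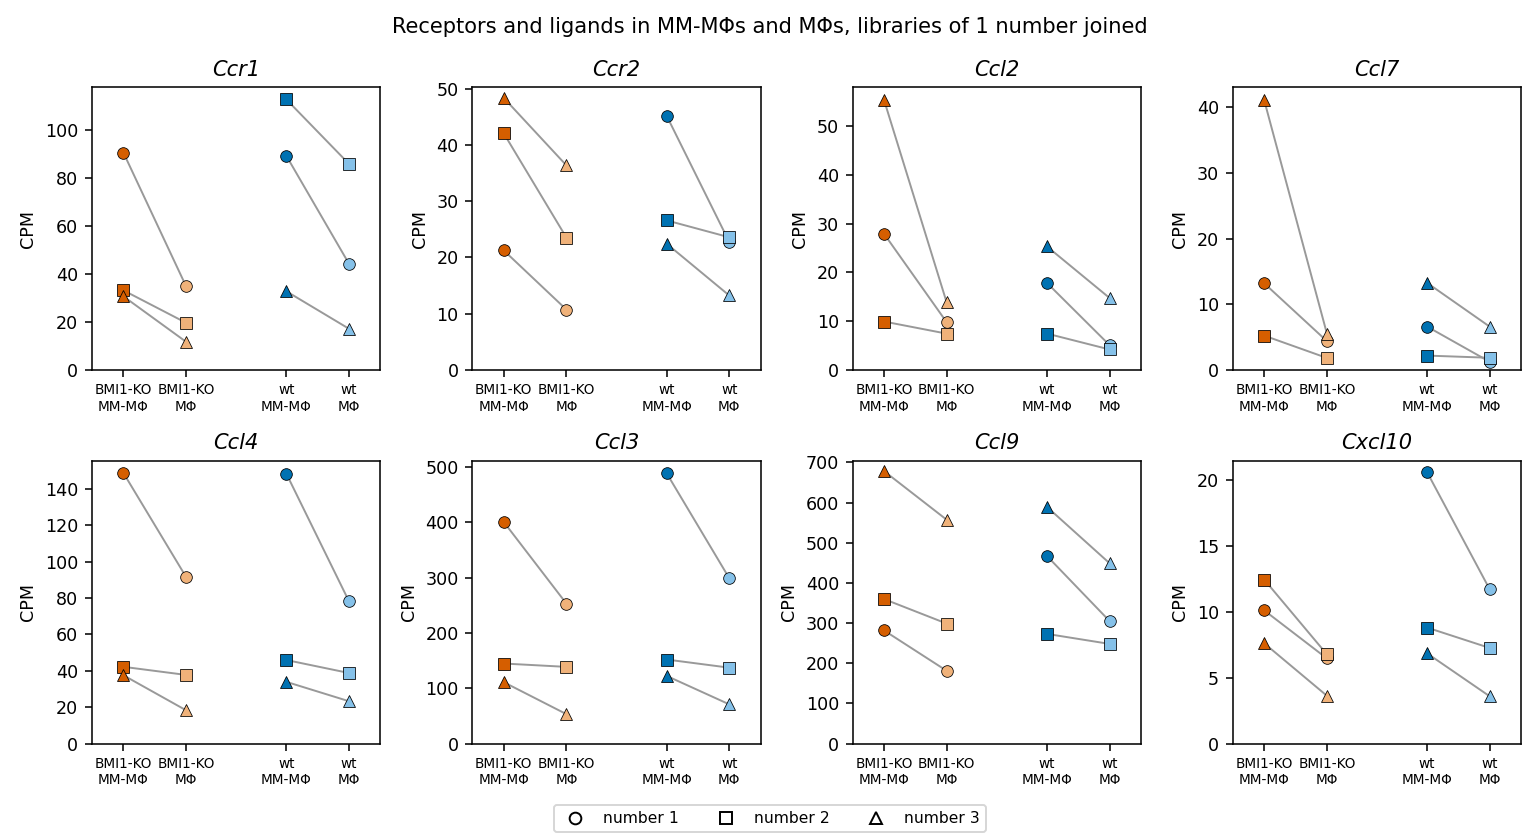
CPM (y axis, from 0) of 8 members that rose with co-culture in the paired test of at least 1 genotype, with MM-MΦ and MΦ libraries of 1 number joined by a line and shapes for the numbers 1 to 3. Every line runs down towards MΦs, while the MM-MΦ and MΦ points of Ccr1 overlap in both genotypes.

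Among the members that rose, the ligands of CCR2 had the largest folds. Ccl2, also called MCP-1, had 28.0, 9.92 and 55.5 CPM in BMI1-KO MM-MΦs, against 9.79, 7.44 and 13.9 CPM in BMI1-KO MΦs (log2 fold change 1.39, SE 0.24, edgeR paired adjusted p = 0.00123). In wt it had 17.9, 7.45 and 25.4 CPM in MM-MΦs, against 5.08, 4.19 and 14.8 CPM in MΦs (log2 fold change 1.12, SE 0.25, edgeR paired adjusted p = 0.0245). Pairs of number 2 showed the lowest Ccl2 in each group. Ccl7, also called MCP-3, had 13.2, 5.21 and 41.1 CPM in BMI1-KO MM-MΦs, against 4.38, 1.81 and 5.54 CPM in BMI1-KO MΦs (log2 fold change 2.11, SE 0.31, edgeR paired adjusted p = 0.00026). In wt Ccl7 had 6.59, 2.17 and 13.2 CPM in MM-MΦs, against 1.22, 1.84 and 6.57 CPM in MΦs (log2 fold change 1.21, SE 0.34, edgeR paired adjusted p = 0.122). The wt pair numbered 2 differed little for Ccl7, with 21 counts against 18. Ccl12, the mouse MCP-5, was higher in all 6 pairs with at most 57 counts in a library, and did not pass. Ccl2, Ccl7 and Ccl12 lie within a cluster on chromosome 11 from 82035571 at the start of Ccl2 to 82103400 at the end of Ccl12, as does the untested Ccl11.

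The macrophage inflammatory protein ligands sit together further along chromosome 11, from Ccl9 at 83572919 to Ccl4 at 83664683. Ccl4, also called MIP-1 beta, had 149, 42.2 and 37.6 CPM in BMI1-KO MM-MΦs, against 91.6, 37.7 and 18.3 CPM in BMI1-KO MΦs (log2 fold change 0.62, SE 0.14, edgeR paired adjusted p = 0.0172). In wt it had 148, 45.9 and 33.9 CPM in MM-MΦs, against 78.2, 38.8 and 23.3 CPM in MΦs (log2 fold change 0.59, SE 0.14, edgeR paired adjusted p = 0.0411). The pairs numbered 2 had the smallest Ccl4 difference in both genotypes. Ccl3, or MIP-1 alpha, rose in BMI1-KO (log2 fold change 0.58, SE 0.14, edgeR paired adjusted p = 0.0234) and had a log2 fold change of 0.55 in wt (SE 0.14, edgeR paired adjusted p = 0.0541), with the values per library given above. Ccl9, known for activating osteoclasts through CCR1, had 282, 360 and 678 CPM in BMI1-KO MM-MΦs, against 181, 299 and 557 CPM in BMI1-KO MΦs (log2 fold change 0.39, SE 0.09, edgeR paired adjusted p = 0.0284). In wt Ccl9 had 467, 273 and 589 CPM in MM-MΦs, against 305, 248 and 449 CPM in MΦs (log2 fold change 0.38, SE 0.09, edgeR paired adjusted p = 0.0533). Ccl6 had 110, 73.7 and 83.8 CPM in BMI1-KO MM-MΦs, against 88.4, 69.2 and 54.6 CPM in BMI1-KO MΦs, and 159, 125 and 194 CPM in wt MM-MΦs, against 102, 97.0 and 152 CPM in wt MΦs. It was called in wt (log2 fold change 0.45, SE 0.10, edgeR paired adjusted p = 0.0208) and not in BMI1-KO (log2 fold change 0.34, SE 0.10, edgeR paired adjusted p = 0.109). All 4 ligands of this group were higher in all 6 pairs.

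Among the CXC ligands Cxcl2 had 893, 647 and 547 CPM in BMI1-KO MM-MΦs, against 582, 614 and 434 CPM in BMI1-KO MΦs (log2 fold change 0.34, SE 0.11, edgeR paired adjusted p = 0.128). In wt Cxcl2 had 1294, 769 and 575 CPM in MM-MΦs, against 898, 719 and 352 CPM in MΦs (log2 fold change 0.44, SE 0.11, edgeR paired adjusted p = 0.0444). Pairs of number 2 again differed least. Cxcl1, the other abundant CXCR2 ligand, had 130, 102 and 65.7 CPM in BMI1-KO MM-MΦs, against 94.4, 122 and 53.4 CPM in BMI1-KO MΦs, and 182, 128 and 72.1 CPM in wt MM-MΦs, against 133, 110 and 46.0 CPM in wt MΦs. It was lower in MM-MΦs in the BMI1-KO pair numbered 2 and did not pass. Cxcl10 had 10.1, 12.4 and 7.60 CPM in BMI1-KO MM-MΦs, against 6.46, 6.77 and 3.63 CPM in BMI1-KO MΦs (log2 fold change 0.85, SE 0.22, edgeR paired adjusted p = 0.0471). In wt Cxcl10 had 20.6, 8.79 and 6.84 CPM in MM-MΦs, against 11.7, 7.25 and 3.58 CPM in MΦs (log2 fold change 0.67, SE 0.22, edgeR paired adjusted p = 0.259). The other CXCR3 ligands were close to absent, with 9 counts of Cxcl9 in all 12 libraries and none of Cxcl11.

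Members that ran the other way were few. Ccl27a was lower in all 3 BMI1-KO pairs and Cx3cl1 in all 3 wt pairs, at low counts that are given further below. Cxcr4, which holds cells in the marrow, had 366, 259 and 169 CPM in BMI1-KO MM-MΦs, against 391, 352 and 236 CPM in BMI1-KO MΦs (log2 fold change −0.34, SE 0.10, edgeR paired adjusted p = 0.0835). In wt Cxcr4 had 411, 186 and 155 CPM in MM-MΦs, against 366, 223 and 136 CPM in MΦs. It was lower in all 3 BMI1-KO pairs and in 1 wt pair. Ccl25, a gut-homing ligand, had 106, 153 and 125 counts in BMI1-KO MM-MΦs, against 164, 180 and 196 in BMI1-KO MΦs (log2 fold change −0.47, SE 0.18, edgeR paired adjusted p = 0.266). In wt it had 140, 156 and 163 counts in MM-MΦs, against 137, 216 and 152 in MΦs. Its annotated span overlaps Elavl1, a gene with 14190 counts on the other strand, and the strand setting of the counting is not given. Cxcl14, a CXC ligand, had 26.4, 54.3 and 93.6 CPM in BMI1-KO MM-MΦs, against 31.4, 79.7 and 96.0 CPM in BMI1-KO MΦs. It was lower in all 3 of these pairs. In wt Cxcl14 had 41.0, 45.4 and 81.3 CPM in MM-MΦs, against 43.9, 43.2 and 76.5 CPM in MΦs. Cxcl16 had 424, 293 and 212 CPM in BMI1-KO MM-MΦs, against 316, 252 and 173 CPM in BMI1-KO MΦs, and 385, 222 and 179 CPM in wt MM-MΦs, against 282, 231 and 137 CPM in wt MΦs. Unlike the members above, Cxcl16 was higher in 5 of 6 pairs, and it did not pass.

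**Figure D3:**
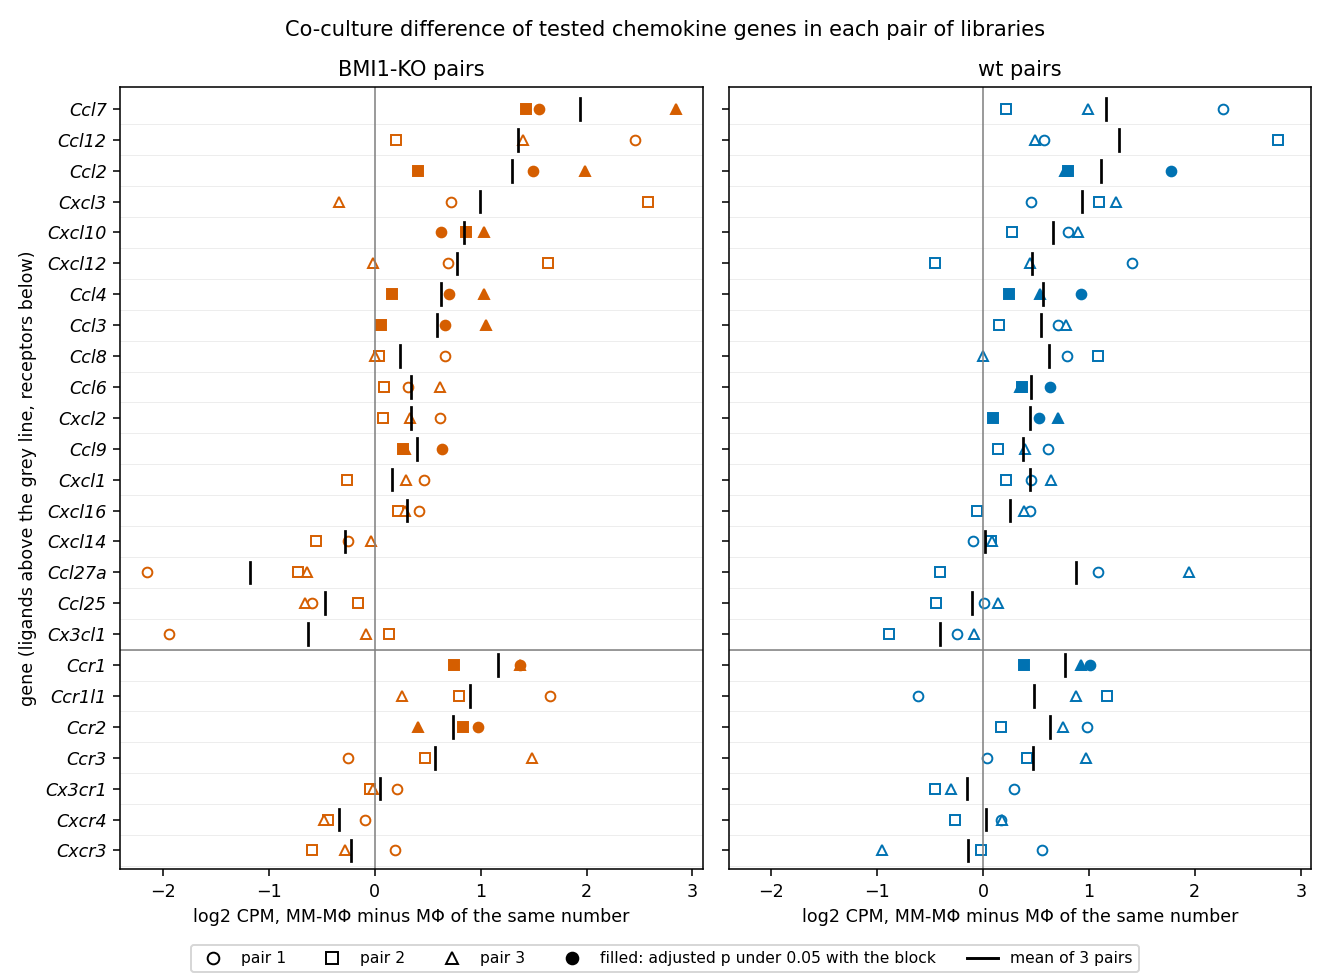
Difference in log2 CPM (x axis, prior count 2) between the MM-MΦ and the MΦ library of 1 number, for 18 ligands and 7 receptors (y axis), in BMI1-KO (left) and wt (right), with shapes for the 3 pairs, black lines for their mean and filled points where the paired test passed. Of the genes plotted, 13 lie right of 0 in all BMI1-KO pairs and 14 in all wt pairs.

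By size, whatever its sign, the difference was smallest in pair 1, 2 or 3 for 4, 12 and 10 of 26 members in BMI1-KO. In wt it was so for 6, 14 and 6 of 26. Over the 18 ligands the median difference was 0.63, 0.15 and 0.29 log2 CPM in the BMI1-KO pairs numbered 1, 2 and 3, and 0.62, 0.18 and 0.51 in the wt pairs, where the median over all genes tested lay between −0.02 and 0.01. Over the 8 receptors it was 0.59, 0.62 and 0.33 in BMI1-KO, highest in pair 2, and 0.43, 0.26 and 0.78 in wt. Over 12 interferon response genes the same medians were 1.71, 1.72 and 2.54 in BMI1-KO and 1.94, 1.44 and 2.11 in wt. These interferon genes were thus higher in the pairs numbered 2 as well. In the wt pair numbered 2, the MM-MΦ library held the most Igkc of all libraries (1327 counts) and the MΦ library 157 counts. In BMI1-KO, number 3 held the most Igkc (1218 counts) and the largest differences of Ccl2 and Ccl7. Without both wt libraries numbered 2, 10 members passed in wt. Without those numbered 1, or those numbered 3, 1 member did, which was none of Ccr1, Ccl2, Ccl4, Ccl6 and Cxcl2. In BMI1-KO, 6 passed without number 1, 6 without number 2 and 3 without number 3, Ccr1 and Ccr2 among them. Shares of all genes called without these pairs are not given here, so these counts cannot be read as particular to chemokine genes.

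Lists of related genes were chosen with earlier results of these data known, so their counts describe the listed genes and test nothing. Of the interferon response list, the paired test called 11 of 12 genes in BMI1-KO, where 2.17% of all genes were called. In wt it called 10 of 12, where 1.10% of all genes were called. Among them were Ifit2 (log2 fold change 3.16 and 2.45) and Ifit3 (3.41 and 2.89). None of the 9 tested genes of the NF-kB response list passed in either genotype, with medians of 0.04 in BMI1-KO and 0.24 in wt. None of 32 genes of chemokine receptor signalling passed, with medians of 0.08 and 0.02. Of 7 proteases that can trim chemokines, Mmp12, the macrophage elastase, fell in BMI1-KO (log2 fold change −0.43, SE 0.11, edgeR paired adjusted p = 0.0484) and had a log2 fold change of 0.01 in wt (adjusted p = 0.999). Of 9 chemokine genes with other names, 3 were tested (Pf4, Ppbp and Ccrl2) and none passed.

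Whether BMI1 loss altered the co-culture response was asked by the difference between genotypes in that response. No member passed, with 0 of 26 by the paired test, where 0.00704% of all genes were called, and 0 of 26 with group means, where edgeR called 0 genes and 129 had an unadjusted p under 0.05. At an unadjusted p under 0.05 stood 3 members by the paired test, where 471 of all genes (3.32%) did, and 1 with group means, and DESeq2 and limma-voom called 0 members. The 3 were Cxcr4, with a difference of −0.37 (95% interval −0.64 to −0.10), Ccl27a at −2.34 (−4.37 to −0.31) and Ccr1 at 0.42 (0.03 to 0.80), each in log2 units and each with an edgeR adjusted p of 0.999. For Ccl7, called in BMI1-KO and not in wt, the difference was 0.90 with a 95% interval of −0.01 to 1.81. For Ccl2 it was 0.27 (−0.41 to 0.94).

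BMI1-KO and wt cells were compared within each culture. No chemokine gene passed in MM-MΦs (0 of 26, where 0.0634% of all genes were called by edgeR) or in MΦs (0 of 26, where 0.0493% were called), and DESeq2 and limma-voom called 0 members in both. At an unadjusted p under 0.05 stood 2 members in MM-MΦs, where 5.02% of all genes did, and 3 in MΦs, where 5.77% did. Libraries did not overlap for 1 of 26 members in MM-MΦs, Ccl6, where 8.85% of all genes did not, and for 4 of 26 in MΦs, where 10.0% of all genes did not: Ccl6 lower, and Ccl27a, Cx3cl1 and Cxcr3 higher.

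Ccl6 had the smallest p of all members in both cultures. Its level was 73.7 to 110 CPM in BMI1-KO MM-MΦs, against 125 to 194 CPM in wt MM-MΦs, and 54.6 to 88.4 CPM in BMI1-KO MΦs, against 97.0 to 152 CPM in wt MΦs. All BMI1-KO libraries lay below all wt libraries of the same culture. The log2 fold change was −0.84 in MM-MΦs (edgeR SE 0.24, adjusted p = 0.508) and −0.73 in MΦs (SE 0.24, edgeR adjusted p = 0.652), so neither passed over all genes.

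Cx3cr1 was the receptor with the smallest p. It marks macrophages and patrolling monocytes that adhere through fractalkine. It had 346, 651 and 1143 CPM in BMI1-KO MM-MΦs, against 242, 152 and 372 CPM in wt MM-MΦs, and 298, 670 and 1158 CPM in BMI1-KO MΦs, against 197, 208 and 457 CPM in wt MΦs. The BMI1-KO library numbered 1 overlapped the wt range in both cultures. The log2 fold change was 1.48 in MM-MΦs (edgeR SE 0.56, adjusted p = 0.816) and 1.30 in MΦs (SE 0.56, edgeR adjusted p = 0.854). In the annotation the Cx3cr1 span on chromosome 9 (119901616 to 120069879) also covers all or part of Wdr48, Gorasp1 and Csrnp1. Only spans were compared, so whether these genes share exonic reads with Cx3cr1 was not tested. Itgax, the CD11c gene listed as a dendritic cell marker, had 159 to 504 counts in BMI1-KO MM-MΦs, against 1024 to 5719 in wt MM-MΦs, and 141 to 589 in BMI1-KO MΦs, against 1098 to 5280 in wt MΦs. It made up nearly all of the dendritic cell list, whose sum was 14.8 to 55.4 CPM in BMI1-KO MM-MΦs, against 90.4 to 593 CPM in wt MM-MΦs, while the other 5 markers had at most 9 counts in a library. The 9 neutrophil markers, 5 of them tested and none called, summed to 16.5 to 158 CPM in BMI1-KO MM-MΦs, against 6.99 to 20.7 CPM in wt MM-MΦs, and to 8.62 to 83.4 CPM in BMI1-KO MΦs, against 6.50 to 16.5 CPM in wt MΦs, with the BMI1-KO libraries numbered 2 highest. The part of these cell types in the genotype values was not tested.

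Cx3cl1, the fractalkine gene itself, had 4, 20 and 22 counts in BMI1-KO MM-MΦs, against 4, 5 and 10 in wt MM-MΦs, and 21, 19 and 23 counts in BMI1-KO MΦs, against 5, 11 and 11 in wt MΦs. The MΦ groups did not overlap and the MM-MΦ groups did (log2 fold change 1.23 in MΦs with an SE of 0.57, edgeR adjusted p = 0.873). Ccl27a, a skin-homing ligand, had 20, 17 and 15 counts in BMI1-KO MΦs, against 5, 10 and 1 in wt MΦs (log2 fold change 1.65 with an SE of 0.68, edgeR adjusted p = 0.82), and 3, 9 and 9 counts in BMI1-KO MM-MΦs, against 13, 7 and 10 in wt MM-MΦs. BMI1-KO was thus above wt in MΦs and overlapped it in MM-MΦs, at counts of 20 or fewer. It has the near-identical copy Ccl27b and overlaps Il11ra1, so its counts are uncertain. Cxcr3, the receptor of Cxcl10, had 4.90, 5.24 and 5.26 CPM in BMI1-KO MΦs, against 3.45, 3.98 and 3.58 CPM in wt MΦs, and 5.63, 3.41 and 4.29 CPM in BMI1-KO MM-MΦs, against 5.19, 3.93 and 1.75 CPM in wt MM-MΦs. Over the 8 receptors tested the median log2 fold change was 0.27 in MM-MΦs, with 7 above 0, and 0.34 in MΦs, with 5 above 0. Over the 18 ligands it was −0.13 in MM-MΦs, with 7 above 0, and 0.06 in MΦs, with 10 above 0, where the median of all genes was −0.01 in both.

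**Figure D4:**
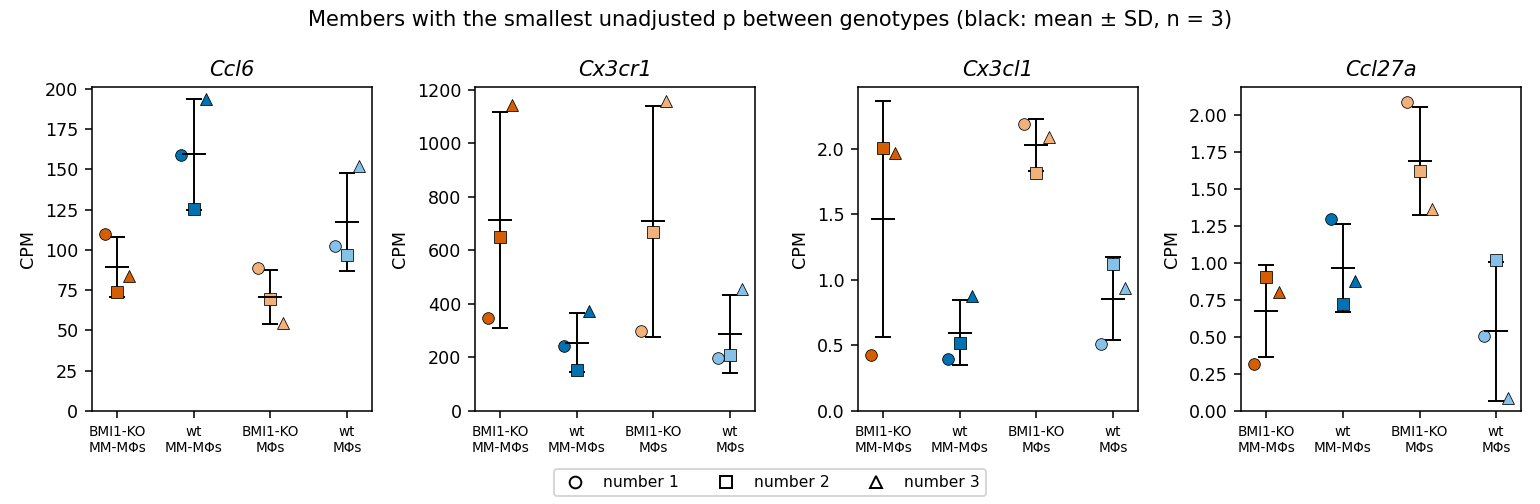
CPM (y axis, from 0) per library in the 4 groups (x axis) of the members with the smallest unadjusted p between genotypes, with shapes for the numbers 1 to 3 and black lines for the mean ± SD (n = 3). Ccl6 lies between 54.6 and 110 CPM in all BMI1-KO libraries and between 97.0 and 194 CPM in all wt ones.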

How the data were processed

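Raw counts per gene were deposited by the authors for 12 libraries, and FPKM values, per kilobase of summed exon size, were deposited by the authors for each library. Per the submitters' processing notes, bcl2fastq 2.17.1.14, cutadapt 1.9.1, HISAT2 2.0.1, HTSeq 0.6.1 and DESeq2 were used with mouse GRCm38 (mm10). Strand setting, annotation release and DESeq2 version are not stated in the sources used. The number of value columns without a sample was 0.

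The test was run in edgeR 4.0.16 under R 4.3.3 (TMM scaling, quasi-likelihood test, 1 mean per group). filterByExpr (minimum count 10, minimum total 15, large group size 10, minimum proportion 0.7) kept 14197 genes, and the Benjamini-Hochberg adjustment ran over these with a threshold of 0.05. CPM were scaled by TMM, and log2 CPM used a prior count of 2. FPKM served only to compare genes. Library totals of 9662279 to 11142768 counts limit the precision of members with few counts. The scripts were tested on simulated data.

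Replicate numbers come from the sample titles. Deviations of MΦ and MM-MΦ libraries from their group means, correlated across genes that are not independent, gave 0.64, 0.18 and 0.60 in BMI1-KO and 0.55, 0.36 and 0.73 in wt for numbers 1, 2 and 3, all above 0.1, so numbers were read as pairs within a genotype. Between genotypes they gave 0.50, 0.03 and 0.51 in MM-MΦs and 0.48, −0.03 and 0.50 in MΦs, and no pairing was read. The common dispersion was 0.0133 with the block and 0.102 without.

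Alternatives were DESeq2 1.42.0, limma-voom (limma 3.58.1), RLE scaling, no filter, at least 1 CPM in 3 libraries, the replicate block, the 6 libraries compared only, and each library left out. The alternatives to the paired test were added after seeing the data. Values per library are given for members past the threshold in either test, for the 8 ligands and 6 receptors of highest mean FPKM and for the 3 members with the smallest p in each comparison, and Cxcr3, Ccr1l1, Ccl5, Ccl8 and Ccr7 were named after their values were seen. Genes of other lists were named where they passed or had the smallest p of their list, and markers by their level. The members and lists were chosen with earlier results of these data known. Counts over the 26 tested members include 1 receptor whose own values are not reported here, and it was left out of the plots.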

Additional observations from a re-analysis of the deposited data

How the results depend on the processing

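With the 4 group means, no chemokine gene passed in any of the 5 comparisons under DESeq2, limma-voom, RLE scaling, either other filter, the 6 libraries compared only or any library left out. The replicate block called 6 members in wt MM-MΦs against wt MΦs, 9 in BMI1-KO MM-MΦs against BMI1-KO MΦs and 0 for the difference between genotypes. With the replicate number as a block across the 4 groups, although numbers were not read as pairs between genotypes, 1 member passed between genotypes in MM-MΦs and 1 in MΦs, Cx3cr1 in both (log2 fold change 1.37 and 1.24). It changed no other call there. The paired counts moved to 11 in wt and 14 in BMI1-KO with no filter on low counts, and to 1 to 10 in wt and 3 to 6 in BMI1-KO when both libraries of a number were left out, while under DESeq2, limma-voom, RLE scaling, the other filter and the 6 libraries compared they were 6 to 9 in wt and 7 to 9 in BMI1-KO. With no filter, the 13 members that had counts but failed the filter were tested too. Shares of all genes called in these settings, and with the block across the 4 groups, are not given here. The counts thus cannot be read as particular to chemokine genes. The cause of these shifts was not tested. No member called by the paired test changed direction in these paired settings.

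Of 882 values of single genes under alternatives, 12 turned sign, all with group means and 1 library left out, where a pair is broken. The log2 fold changes then ran, in wt co-culture, from −0.30 to 1.29 for Ccl3, −0.23 to 1.30 for Ccl4 and −0.11 to 0.51 for Cxcl16, and in BMI1-KO co-culture from −0.21 to 1.19 for Ccl3, −0.30 to 1.44 for Ccl4, −0.094 to 0.88 for Ccl9, −0.056 to 1.42 for Ccr3 and −0.76 to 0.10 for Cxcl14. The difference between genotypes ran from −0.14 to 1.04 for Ccr1 and from −0.78 to 0.21 for Cxcr4.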
